A study of Mus musculus with 6 samples.

Results

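The genes described here are 9 that make, restrain, import or answer to retinoic acid: Stra6, Adh7, Rdh10, Dhrs3, Aldh1a1, Aldh1a2, Aldh1a3, Aldh1a7 and Rarb. They were chosen by name, and the rule itself uses no measured value, although earlier results of these data were known when the set was proposed. All 9 of 9 were found among the 41709 genes listed for the series. RNA was sequenced from the rear nasal septum of mice, with mucosa and bone included. In the control group, 3 libraries came from mice fed a diet with sufficient zinc from 4 to 8 weeks of age, and in the zinc-deficient group 3 libraries came from mice fed a zinc-deficient diet over the same weeks. The sources used here give no strain, sex or genotype. Whether every library stands for its own animal is not stated either, so p-values speak only for how these libraries vary, which may be technical. The libraries are numbered 4, 5 and 6 in each group, and values below are given in that order.

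Retinoic acid is made from retinol, the alcohol form of vitamin A, in 2 oxidation steps. Retinol is first oxidised to retinaldehyde, by membrane-bound short-chain dehydrogenases such as RDH10 or by cytosolic alcohol dehydrogenases such as ADH7, and the retinaldehyde dehydrogenases of the ALDH1A family then oxidise retinaldehyde irreversibly to retinoic acid. Retinoic acid binds nuclear receptors of the RAR family, which act on DNA as dimers with RXR proteins, and CYP26 enzymes degrade it. In the nose the signal takes part in the formation of the olfactory placode and in the maintenance of the olfactory epithelium. Zinc enters this pathway at more than 1 place, because the alcohol dehydrogenases are zinc enzymes and the receptors grip DNA through zinc fingers.

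Rarb is itself a classical target of retinoic acid, and the element through which it responds is shown here because it ties a gene of the set directly to the receptor. The element in question is a DR5 retinoic acid response element, made of a pair of receptor half-sites in the same orientation with 5 bases between them. Each half-site was read as NGNTCA, where the first N had to be A or G and the last N had to be G or T, and no other motif was searched. It was searched on both strands of RefSeq promoter windows on GRCm38.p6, each running from 250 bases before to 50 bases after a gene start. Of the 9 genes, 7 had such a window (13 windows in all), and Rarb was the only 1 of the 7 whose window held a match. Of the other pathway genes introduced further on, 41 had a window and only Cyp26a1, which encodes a retinoic acid-degrading enzyme, held a match. Over all 32851 windows the share with a match was 0.0974%. The 250 bases before each of these starts are printed 5′ to 3′ on the strand of the gene, with the 17 bases of the match in capitals. For Rarb they cover chr14:16575477-16575726 on the minus strand, and the match lies 53 to 37 bases before the start. For Cyp26a1 they cover chr19:37697558-37697807 on the plus strand, and the match, which reads on the opposite strand, lies 32 to 16 bases before the start. A match is a description of letters in these windows and not a measurement of binding.
Rarb: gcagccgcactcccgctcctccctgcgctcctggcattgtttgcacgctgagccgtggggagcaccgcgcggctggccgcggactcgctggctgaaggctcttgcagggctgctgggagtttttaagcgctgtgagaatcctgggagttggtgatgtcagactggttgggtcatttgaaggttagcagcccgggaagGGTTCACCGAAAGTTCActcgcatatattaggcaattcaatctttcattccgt
Cyp26a1: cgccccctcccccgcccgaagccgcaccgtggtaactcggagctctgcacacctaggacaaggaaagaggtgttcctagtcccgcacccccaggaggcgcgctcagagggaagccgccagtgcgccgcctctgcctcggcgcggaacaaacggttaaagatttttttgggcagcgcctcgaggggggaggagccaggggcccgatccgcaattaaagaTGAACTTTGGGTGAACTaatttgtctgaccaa

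The tissue held RNA of olfactory epithelium, glands, bone and marrow together. Of 78 marker genes in 15 cell type lists, Scgb1a1, a club cell secretoglobin gene, had 0 counts in all 6 libraries and each of the others had counts in at least 1 library. Omp, the olfactory marker protein gene of mature olfactory neurons, ranged from 2364 to 5051 CPM (counts scaled to library size, with TMM factors between libraries), and Bglap, the osteocalcin gene of osteoblasts, from 38.9 to 143 CPM. Marker sums of mature olfactory neurons were higher in each zinc-deficient library (7770 to 9373 CPM) than in each control library (5724 to 6911), as were those of immature olfactory neurons (284 to 333 against 261 to 273) and neutrophil precursors (199.9 to 294 against 7.39 to 145). Sums for respiratory ciliated cells (460 to 652 against 655 to 830.4) and osteoblasts (205 to 231 against 270.1 to 450.2) were lower in each zinc-deficient library. All 6 genes of each of these lists had negative log2 fold changes, and CPM ranges were apart for 2 of 6 (33.3%). These were Dnah5 and Dnah9 for ciliated cells and Dmp1 and Runx2 for osteoblasts. Ranges were apart for 6 of 8 mature neuron, 2 of 4 immature neuron and 5 of 5 neutrophil precursor genes. Over all 18427 genes tested, the share with CPM ranges apart was 18.9%. In such whole-tissue libraries, fewer cells of a type and less RNA per cell cannot be told apart, and the part of these marker differences in the values that follow was not tested. The libraries held between 11731999 and 18727863 counts, and the 9 genes had between 154 and 2768 counts in each library.

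None of the 9 genes passed the test of a difference between the diets across all genes. Adh7 and Rdh10, which encode enzymes that oxidise retinol, had the most negative log2 fold changes of the 9 (−0.59 and −0.33), and Stra6 and Rarb the most positive (0.18 and 0.17). The 4 Aldh1a genes lay between −0.17 and 0.12, and Dhrs3 was at 0.02. Of the 18427 genes tested with edgeR's quasi-likelihood test, 22 (0.119%) passed a Benjamini-Hochberg adjusted p of 0.05 (0.0868% higher and 0.0326% lower under the zinc-deficient diet), and 0 of the 9 did, with adjusted p from 0.434 to 0.959. At an unadjusted p under 0.05 edgeR called 0 of the 9, against 12.9% of all genes tested, limma-voom called 0 of the 9, against 13% of all, and DESeq2 called 1, Adh7, against 13% of all. After adjustment neither DESeq2 nor limma-voom called any of the 9, where over all genes they called 2.05% and 0.0326%. For all 9 genes the CPM ranges of the diets overlapped, whereas they did not for 18.9% of the genes tested (9.56% higher and 9.31% lower under the zinc-deficient diet). The authors' deposited table likewise held no FDR p-value under 0.05 for any of the 9, where 2.04% of the genes with such a value were under 0.05.

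All 9 of the 95% intervals of the log2 fold change included 0, and 8 of the 9 lay wholly within 1 log2 unit of 0, which is a 2-fold change in either direction. The exception was Adh7, whose interval reached −1.24. The median log2 fold change of the 9 was 0.05 with 6 positive and 3 negative, beside −0.0021 over all genes tested, of which 49.7% were positive. Their median absolute log2 fold change was 0.17, beside 0.22 over all genes tested.

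**Figure D1:**
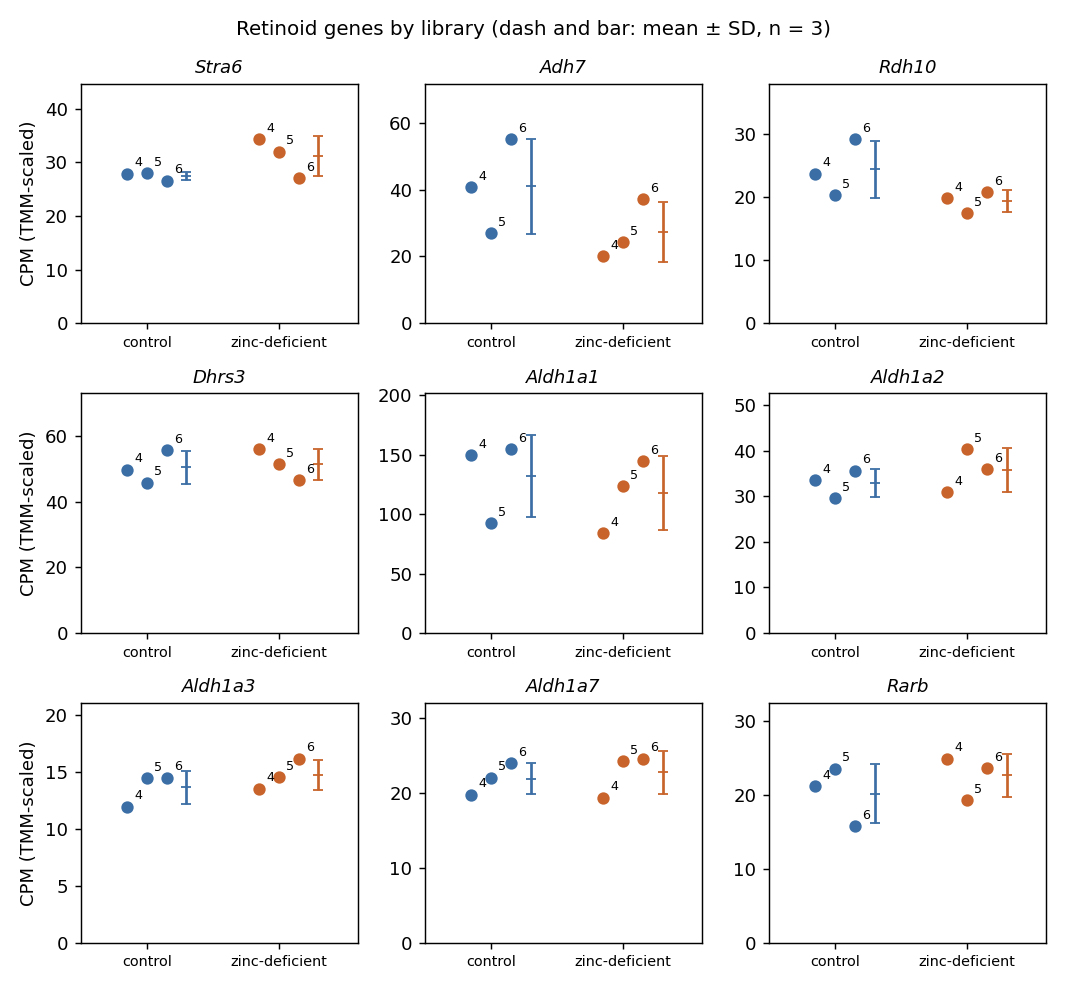
CPM (TMM-scaled) of the 9 genes in each library, with a separate axis from 0 for each gene; points are libraries marked by number, and the dash and bar beside them are the mean ± SD (n = 3). Ranges of the diets overlap for all 9 genes, and Adh7 and Aldh1a1 have the widest spread between libraries.

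Stra6 (ENSMUSG00000032327, chromosome 9, 57971071 to 58061279) encodes the membrane receptor that takes up retinol from its plasma carrier RBP4, and its transcription is induced by retinoic acid in cultured cells. Its level was 27.9, 28.0 and 26.6 CPM in control libraries and 34.4, 32.0 and 27.0 CPM in zinc-deficient libraries. The controls were almost level, and zinc-deficient libraries 4 and 5 lay above them while library 6 lay among them. The control mean was 27.5 ± 0.769 CPM and the zinc-deficient mean 31.1 ± 3.76 CPM (SD, n = 3 per diet), which gave a log2 fold change of 0.18 (95% interval −0.15 to 0.51, edgeR adjusted p = 0.653). It was 0.11 without zinc-deficient library 4 and 0.27 without zinc-deficient library 6. In the deposited RPKM, which has no TMM scaling, Stra6 was at 2.35, 2.19 and 2.19 in control libraries and at 2.81, 2.90 and 2.51 in zinc-deficient libraries. On that scale every zinc-deficient library lay above every control library, so whether the ranges overlap depended on the scaling. The gene overlaps Ccdc33 on the opposite strand, which had 4364 counts over the 6 libraries against 2655 for Stra6. Since the sources used here do not say whether counting used the strand, reads of the pair cannot be told apart where they overlap.

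Adh7 (ENSMUSG00000055301, chromosome 3, 137923521 to 137939143) encodes the class IV alcohol dehydrogenase, a zinc enzyme of surface epithelia that oxidises retinol. Its level was 40.8, 26.9 and 55.1 CPM in control libraries and 20.2, 24.2 and 37.2 CPM in zinc-deficient libraries. Control libraries 4 and 6 lay above every zinc-deficient library, but control library 5 lay below zinc-deficient library 6. The means were 41.0 ± 14.1 and 27.2 ± 8.92 CPM (SD, n = 3 per diet), which gave a log2 fold change of −0.59 (SE 0.29, 95% interval −1.24 to 0.06), which did not pass (edgeR unadjusted p = 0.0702, adjusted p = 0.434). In the authors' deposited table the log2 fold change of Adh7 was −0.58 with a p-value of 0.0240 and an FDR p-value of 0.306. The log2 fold change was −0.31 without control library 6 and −0.88 without zinc-deficient library 6, so that single libraries moved it by more than 1.5 times, and its adjusted p lay between 0.207 and 0.715 over 14 alternative analyses.

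Rdh10 (ENSMUSG00000025921, chromosome 1, 16175998 to 16203958) encodes the retinol dehydrogenase that provides most retinaldehyde for retinoic acid in the mouse embryo. Its level was 23.7, 20.3 and 29.2 CPM in control libraries and 19.9, 17.5 and 20.8 CPM in zinc-deficient libraries. The overlap rested on control library 5, which lay just below zinc-deficient library 6. The means were 24.4 ± 4.52 and 19.4 ± 1.70 CPM (SD, n = 3), with a log2 fold change of −0.33, a standard error of 0.18 and a 95% interval from −0.72 to 0.05 (edgeR unadjusted p = 0.0857, adjusted p = 0.458). Without control library 6 the log2 fold change was −0.18, so this library also moved the value by more than 1.5 times.

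Dhrs3 (ENSMUSG00000066026, chromosome 4, 144619397 to 144654779) encodes the enzyme that runs the first step backwards, reducing retinaldehyde to retinol, and that works in a complex with RDH10. It is known to be induced by retinoic acid. Dhrs3 was at 49.9, 45.9 and 55.8 CPM in control libraries and at 56.2, 51.5 and 46.5 CPM in zinc-deficient libraries. The values of the diets were interleaved, and this was the narrowest spread of the 9 genes, the highest library being 1.22 times the lowest. The log2 fold change was 0.02 (95% interval −0.28 to 0.32, edgeR adjusted p = 0.959). Taken as a ratio of levels per length in the deposited RPKM (reads scaled to transcript length and library depth), Rdh10 over Dhrs3 was 0.335, 0.311 and 0.369 in control libraries and 0.249, 0.239 and 0.315 in zinc-deficient libraries. The lowest control ratio lay just below the highest zinc-deficient ratio, so these ranges overlapped too.

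The Aldh1a family serves the second, irreversible step, and 4 of its genes were measured. Aldh1a1 (ENSMUSG00000053279, chromosome 19, 20470079 to 20620829) was the most abundant of the 9 genes by RPKM and by CPM. It was at 149.6, 92.6 and 155 CPM in control libraries and at 84.1, 124 and 145 CPM in zinc-deficient libraries. The low libraries were control library 5 and zinc-deficient library 4, and the other 4 libraries, from both diets, lay between 124 and 155 CPM. The means were 132 ± 34.6 and 118 ± 30.9 CPM (SD, n = 3 per diet), which gave a log2 fold change of −0.17 (95% interval −0.70 to 0.36, edgeR adjusted p = 0.803). Without zinc-deficient library 4 the log2 fold change was 0.03, so that its sign rested on that library.

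Aldh1a2 (ENSMUSG00000013584, chromosome 9, 71123071 to 71203525), which encodes the main retinaldehyde dehydrogenase of embryonic mesoderm, was at 33.6, 29.5 and 35.6 CPM in control libraries and at 30.9, 40.4 and 35.9 CPM in zinc-deficient libraries. Only zinc-deficient library 5 lay clearly above the rest. Its log2 fold change was 0.12 (95% interval −0.22 to 0.46, edgeR adjusted p = 0.783), and it lay between 0.02 without zinc-deficient library 5 and 0.22 without zinc-deficient library 4. Aldh1a3 (ENSMUSG00000015134, chromosome 7, 66040638 to 66077265), whose loss in mice blocks the opening between nose and throat, was at 12.0, 14.5 and 14.5 CPM against 13.6, 14.6 and 16.2 CPM. Zinc-deficient library 6 was the highest and control library 4 the lowest, with the other 4 libraries between 13.6 and 14.6 CPM. Its log2 fold change was 0.11 (95% interval −0.28 to 0.51, edgeR adjusted p = 0.830), and it lay between 0.04 without control library 4 or zinc-deficient library 6 and 0.18 without zinc-deficient library 4.

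Aldh1a7 (ENSMUSG00000024747, chromosome 19, 20670317 to 20704926) lies 49487 bases from Aldh1a1 in the deposited coordinates, on the opposite strand. It is a rodent paralog of Aldh1a1 whose product is reported to have little or no activity on retinaldehyde. Its level was 19.8, 22.0 and 23.9 CPM in control libraries and 19.4, 24.2 and 24.6 CPM in zinc-deficient libraries. The diets were interleaved, with a log2 fold change of 0.05 (95% interval −0.31 to 0.42, edgeR adjusted p = 0.928).

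How far reads of this pair can be separated is a matter of their sequence. In GENCODE M21 on GRCm38, the coding sequences of Aldh1a1 and Aldh1a7 are both 1503 bases long without the stop codon and are identical at 91.62% of positions, whereas Aldh1a1 and Aldh1a2 are identical at 68.77%. Of all 50-base windows of the Aldh1a1 coding sequence, 10.39% occur unchanged in Aldh1a7, as do 3.5% of 75-base windows, and 0% of either occur in Aldh1a2 or Aldh1a3. The stretch of 60 bases below, coding bases 317 to 376, is where the pair differ most within an exon, at 16 positions, which are in capitals, and it shows what tells the transcripts apart. It lies at chr19:20619973-20620032 on the plus strand for Aldh1a1 and at chr19:20719252-20719311 on the minus strand for Aldh1a7, both on GRCm38, whose positions cannot be set against the deposited ones, for which no build is named.
Aldh1a1: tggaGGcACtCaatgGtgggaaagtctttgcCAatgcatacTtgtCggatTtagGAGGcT
Aldh1a7: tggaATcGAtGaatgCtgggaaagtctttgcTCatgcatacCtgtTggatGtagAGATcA

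The sources used here do not give the read length, so counts of this pair carry an uncertainty from shared reads. With the counts of both genes added into 1 feature before the fit, the log2 fold change was −0.14 (95% interval −0.59 to 0.32, edgeR adjusted p = 0.817). The ratio of Aldh1a1 to Aldh1a7 in RPKM was not fixed across libraries. It was 3.17, 1.76 and 2.71 in control libraries and 1.82, 2.14 and 2.47 in zinc-deficient libraries. The ratio was thus low in the same libraries in which Aldh1a1 was low, control 5 and zinc-deficient 4. Aldh1a7 varied by 1.27 times over the 6 libraries in CPM, and Aldh1a1 by 1.84 times.

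As a family, the 4 genes summed to 28.1, 20.8 and 29.7 RPKM in control libraries and to 20.4, 30.6 and 32.8 RPKM in zinc-deficient libraries. Aldh1a1 held 48.3% ± 6.25 of that sum in controls and 43.8% ± 4.43 with zinc deficiency (SD, n = 3 per diet). Aldh1a2 held 26.6% ± 1.71 and 29.6% ± 3.02, Aldh1a7 19.6% ± 3.43 and 20.6% ± 1.12, and Aldh1a3 5.50% ± 1.23 and 6.02% ± 0.715. The ranges of each share overlapped between the diets.

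Rarb (ENSMUSG00000017491, chromosome 14, 5650540 to 6038924), the receptor gene whose DR5 match is printed above, was at 21.2, 23.6 and 15.8 CPM in control libraries. In the zinc-deficient libraries it was at 24.97, 19.4 and 23.7 CPM. Control library 6 was the lowest of the 6, and the other 5 libraries overlapped. The means were 20.2 ± 3.99 and 22.7 ± 2.95 CPM (SD, n = 3 per diet), which gave a log2 fold change of 0.17 (95% interval −0.25 to 0.58, edgeR adjusted p = 0.757). Without control library 6 it was 0.02. Rarb overlaps Top2b on the opposite strand, which had 14666 counts over the 6 libraries against 1939 for Rarb, so part of its count is uncertain in the same way as that of Stra6.

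**Figure D2:**
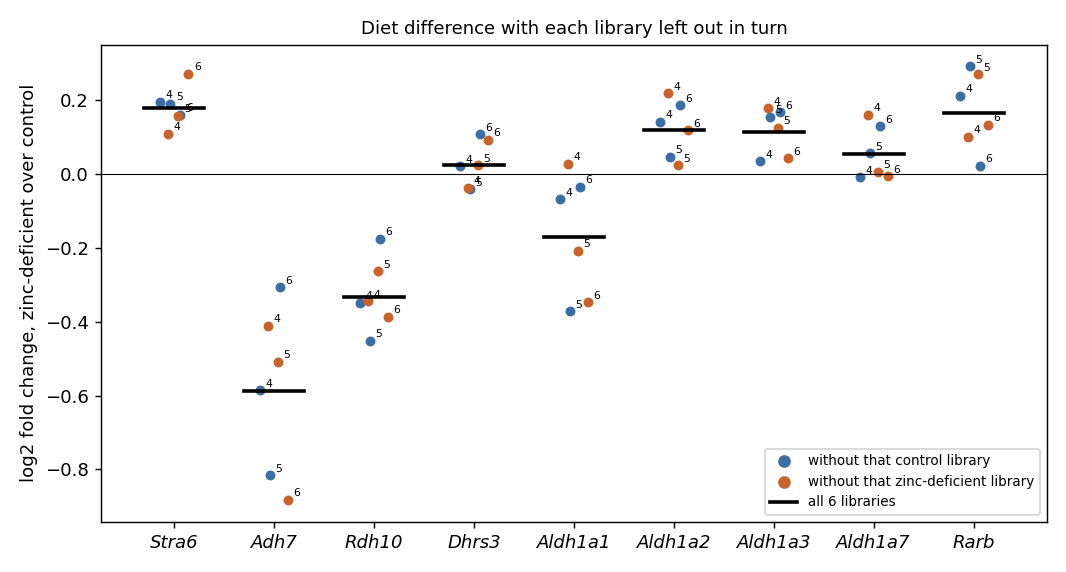
Log2 fold change (zinc-deficient over control, edgeR) of the 9 genes with all 6 libraries (bar) and with each library left out in turn (points, coloured by the diet of the library left out and marked with its number). Adh7 moves between −0.88 and −0.31 and Rdh10 between −0.45 and −0.18, and the values of Aldh1a1, Aldh1a7 and Dhrs3 cross 0.

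Set in order by mean RPKM over the 6 libraries, the 9 genes ran from Aldh1a1 (12.6 ± 3.44, SD over 6 libraries) through Dhrs3 (8.62 ± 0.807), Aldh1a2 (7.55 ± 1.29), Aldh1a7 (5.37 ± 0.827), Adh7 (4.46 ± 1.69), Rdh10 (2.60 ± 0.456), Stra6 (2.49 ± 0.306) and Rarb (2.02 ± 0.338) to Aldh1a3 (1.53 ± 0.223). No neighbours in this order were separated, because the ranges of every adjacent pair overlapped. Within libraries, Aldh1a2 lay above Aldh1a7, Adh7 above Rdh10 and Stra6 above Rarb in 6 of 6. Aldh1a1 lay above Dhrs3, Dhrs3 above Aldh1a2 and Rarb above Aldh1a3 in 5 of 6, and Aldh1a7 above Adh7 and Rdh10 above Stra6 in 4 of 6. Aldh1a1 stood at the 92.7 percentile of mean RPKM among the genes tested and Aldh1a3 at the 42.2 percentile. Adh1, another alcohol dehydrogenase gene, was at 59.2 RPKM, above all of the 9.

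**Figure D3:**
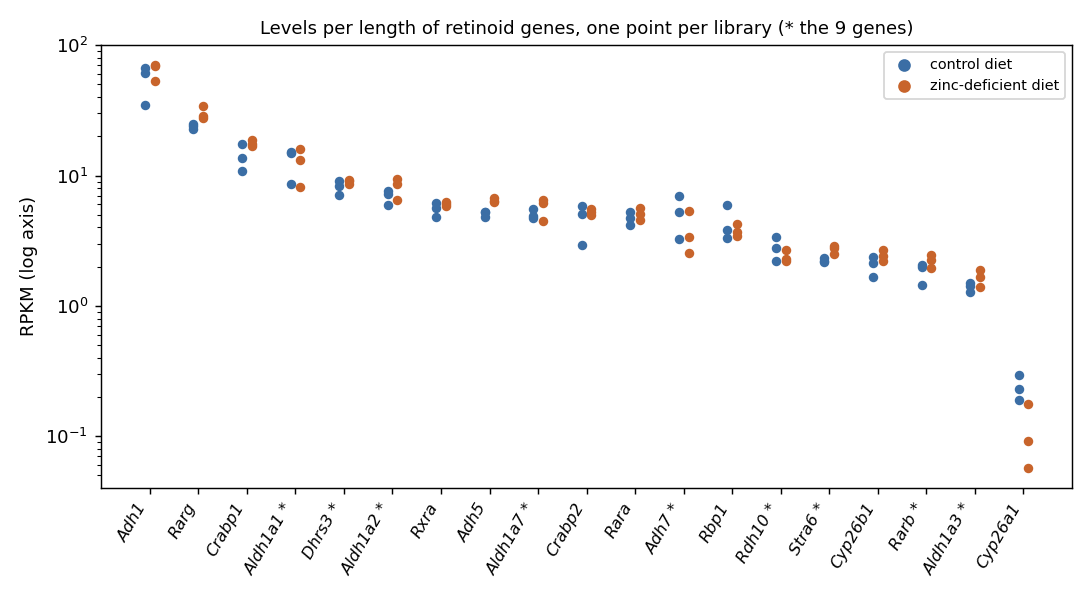
Deposited RPKM (log axis) of the 9 genes, marked with an asterisk, and of 10 other pathway genes, with 1 point per library coloured by diet. Adh1 (mean 59.2 RPKM) and Rarg (27.0) lie above the 9 genes, and Cyp26a1 (0.173) lies below them. Crabp1 has a higher mean (15.8) than Aldh1a1 (12.6), with overlapping points.

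The spread between libraries was itself uneven among the 9. The highest library was 2.73 times the lowest in CPM for Adh7 and 1.84 times for Aldh1a1, and between 1.22 and 1.67 times for the other 7 genes. In CPM, Adh7 and Aldh1a1 were both highest in control library 6, next in control library 4 and then in zinc-deficient library 6. Both were lowest in zinc-deficient library 4. In RPKM, Aldh1a1 was highest in zinc-deficient library 6 (15.9, against 15.1 in control library 6). Adh7 was slightly higher there in zinc-deficient library 6 (5.32) than in control library 4 (5.28). The shared order therefore depended in part on the scaling, though zinc-deficient library 4 was lowest on both scales. The levels of Adh7 and Aldh1a1 did not move in proportion. The ratio of Aldh1a1 to Adh7 in RPKM was 2.81, 2.64 and 2.16 in control libraries and 3.20, 3.93 and 2.99 in zinc-deficient libraries. Every zinc-deficient ratio lay above every control ratio, the only 1 of the 4 ratios computed between genes of the set whose ranges were apart. This difference was not tested. CPM ranges of single genes were apart for 18.9% of the genes tested, but no such share was computed for ratios between genes. A list of 5 nasal secretory and gland cell markers, looked at for this order after the values were seen, had the same order of libraries in CPM as Aldh1a1 in all 6 places. That order was carried by Dmbt1, a secreted mucosal glycoprotein gene, which alone of the list's genes had it and held the largest part of the sum in control libraries. Bpifa1 was ordered otherwise, with zinc-deficient libraries 6, 5 and 4 next after control library 6, and Reg3g and Muc5ac were higher in every control library than in every zinc-deficient one. The summed level of the list was 8499, 4214 and 17683 CPM in control libraries and 3339, 4971 and 6479 CPM in zinc-deficient libraries. Of its 5 genes, 4 were detected in every library, with Scgb1a1 at 0 in all. In size of change the list was not close to Aldh1a1, with a root-mean-square difference of centred log2 CPM of 0.53, and 10 of the 15 lists were closer. The list of 5 horizontal basal cell markers, all detected in every library, summed to 128, 88.0 and 123 CPM against 82.3, 83.2 and 106.2 CPM. Its order matched that of Adh7 apart from the top pair, which were exchanged. Of its genes, only Krt15 had the order of Adh7. Krt5 was highest in zinc-deficient library 6 and lowest in control library 5, and Trp63 was next to lowest in control library 6. Krt14 and Col17a1 were lowest in zinc-deficient library 5. By the root-mean-square difference, the summed list was the closest of the 15 lists to both Aldh1a1 (0.19) and Adh7 (0.26). Fibroblast markers followed, at 0.21 and 0.27. Sustentacular markers, of supporting cells of the olfactory epithelium, lay at 0.30 and 0.47 and summed to 8943, 6567 and 9829 CPM against 9577, 9232 and 10148 CPM. The part of these cell types in the levels of Adh7 and Aldh1a1 was not tested.

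**Figure D4:**
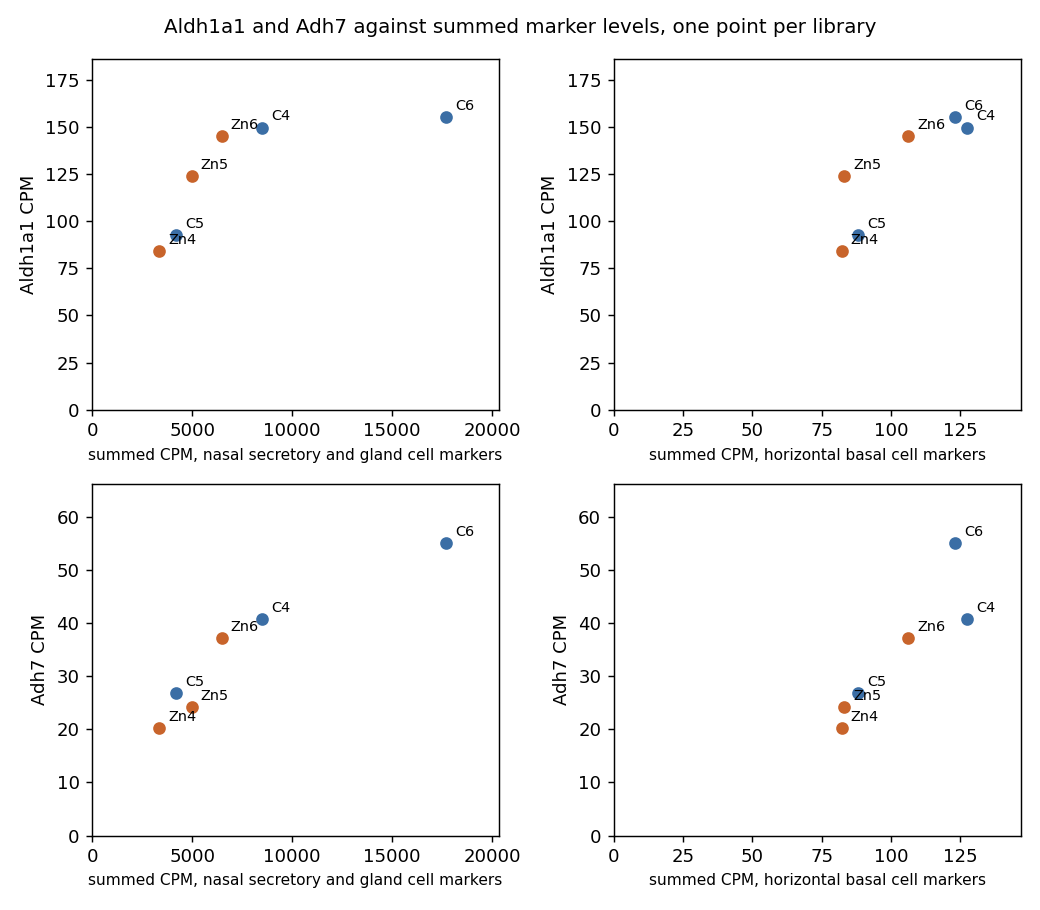
CPM of Aldh1a1 (top) and Adh7 (bottom) in each library against the summed CPM of nasal secretory and gland cell markers (left) and of horizontal basal cell markers (right), with all axes from 0 and points labelled C for control and Zn for zinc-deficient. Libraries C6, C4 and Zn6 are the 3 highest for both genes and on both marker sums, and Zn4 is the lowest.

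Rdh10, the other retinol-oxidising gene of the 9, shared this order in part. In CPM it was also highest in control libraries 6 and 4, but its lowest library was zinc-deficient 5. In RPKM its lowest library was control 5. Retinoic acid induces Rarb, Stra6 and Dhrs3 in other settings. In CPM they were each highest in zinc-deficient library 4, where Adh7 and Aldh1a1 were lowest. Dhrs3 was nearly as high in control library 6 (55.8 CPM against 56.2). Stra6 and Rarb were lowest in control library 6, where Adh7 and Aldh1a1 were highest. In RPKM, Stra6 and Dhrs3 were highest in zinc-deficient library 5 and Rarb in zinc-deficient library 6, and Stra6 was lowest in control library 5. The pattern therefore depended on the scaling. In CPM the mature olfactory neuron and erythroid marker sums were also highest in zinc-deficient library 4. By the root-mean-square difference, the closest of the 15 lists was mature olfactory neuron for Stra6 (0.16). It was immature olfactory neuron for Rarb (0.21) and ensheathing glia for Dhrs3 (0.14). The part of these cell types in the levels of Stra6, Rarb and Dhrs3 was not tested. Of other known targets, described further on, Meis1 and Meis2 were lowest in zinc-deficient library 4 in CPM. Tgm2 was next to lowest there, while Nrip1 was highest there.

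Other genes of the pathway were read from the same fit: 55 genes of carriers, enzymes, receptors and targets, of which 38 had enough counts to be tested. None passed with edgeR (0 rose and 0 fell), and 5 of the 38 had an unadjusted p under 0.05, a share of 13.2% beside 12.9% for all genes tested. Of the 38, 25 were positive and 13 negative, with a median log2 fold change of 0.10 beside −0.0021 over all genes tested. CPM ranges of the diets were apart for 11 of them (28.9%, beside 18.9% of all genes tested), 6 higher and 5 lower under the zinc-deficient diet. DESeq2 called 1 of the genes, Meis2, where it called 2.05% of all genes, and limma-voom called 0. The 17 genes not tested had mean levels of at most 1.83 CPM in either diet.

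Among carriers and storage genes, 7 of 14 were tested, with 6 positive and 1 negative. Crabp1 and Crabp2, which encode cytosolic retinoic acid-binding proteins, were the most abundant at 15.8 and 4.92 RPKM and had log2 fold changes of 0.22 (95% interval −0.18 to 0.62) and 0.08 (−0.43 to 0.59). Dgat1, whose acyltransferase can esterify retinol besides making triglyceride, had separate ranges, at 18.9, 23.2 and 20.1 CPM in control libraries against 26.4, 27.3 and 24.0 CPM. Its log2 fold change was 0.32 (edgeR adjusted p = 0.422). None of these genes passed.

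Of 16 other dehydrogenase and reductase genes, 11 were tested, with 8 positive and 3 negative. Adh1, whose enzyme oxidises retinol at high doses, was at 279, 169 and 309 CPM in control libraries and at 247, 294 and 292 CPM in zinc-deficient libraries, with a log2 fold change of 0.14 (95% interval −0.30 to 0.58, edgeR adjusted p = 0.807). Like Aldh1a1 it was low in control library 5. Adh5, the class III gene of formaldehyde metabolism, had a log2 fold change of 0.23 with separate ranges (edgeR adjusted p = 0.446). Rdh12, a retinaldehyde reductase gene known from photoreceptors, showed 8, 6 and 14 reads counted in control libraries and 16, 39 and 34 in zinc-deficient libraries. Its log2 fold change was 1.35 (95% interval 0.25 to 2.46) with an unadjusted p of 0.0209, and it did not pass (edgeR adjusted p = 0.313). Rdh9 had a wide interval, with a log2 fold change of 2.15 (−0.61 to 4.91), and 65 counts in zinc-deficient library 4 and between 0 and 23 in the others.

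For the breakdown of retinoic acid, Cyp26b1 was the main gene detected, at 26.1, 19.6 and 23.6 CPM in control libraries and 27.1, 22.5 and 26.4 CPM in zinc-deficient libraries. The diets were interleaved, with a log2 fold change of 0.13 (95% interval −0.23 to 0.50, edgeR adjusted p = 0.775). Cyp26a1, the other gene whose DR5 match is printed above, was near the lower limit of detection. Its counts were 12, 16 and 12 in control libraries and 10, 6 and 4 in zinc-deficient libraries, where 3 counts corresponded to between 0.157 and 0.239 CPM. The CPM ranges were apart, and the log2 fold change of −1.23 (95% interval −2.63 to 0.17) did not pass (edgeR adjusted p = 0.446). The 2 genes with a DR5 match therefore had log2 fold changes of opposite sign, 0.17 for Rarb and −1.23 for Cyp26a1, both with intervals that included 0.

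All 12 receptor and partner genes were tested. Rarg, the most abundant receptor gene at 27.0 RPKM, was at 208, 234 and 201 CPM in control libraries and at 306, 232 and 218 CPM in zinc-deficient libraries. Zinc-deficient library 4 stood above the rest, and the log2 fold change was 0.23 (95% interval −0.10 to 0.56, edgeR adjusted p = 0.548). Rxrb, a dimer partner of the receptors, was at 40.9, 52.7 and 44.4 CPM against 64.5, 56.6 and 53.9 CPM, with separate ranges and a log2 fold change of 0.34 (unadjusted p = 0.0347, edgeR adjusted p = 0.350). Rxrg, of the same family, had −0.84 (95% interval −1.78 to 0.09, edgeR adjusted p = 0.439), with zinc-deficient library 4 lowest at 0.810 CPM.

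Of 10 genes known as retinoic acid targets elsewhere, 6 were tested, with 2 positive and 4 negative values. Meis2, a homeobox gene induced by retinoic acid in limb and neural tissue, had the smallest p of the 38. It was at 42.0, 46.5 and 53.1 CPM in control libraries and at 20.4, 28.4 and 33.2 CPM in zinc-deficient libraries. Every control library lay above every zinc-deficient library, and the log2 fold change was −0.79 (95% interval −1.19 to −0.38), with an unadjusted p of 0.00128 that did not pass (edgeR adjusted p = 0.151). With DESeq2 the value was −0.78 and passed (adjusted p = 0.0122), and over all alternatives the adjusted p lay between 0.0122 and 0.349. In the authors' deposited table Meis2 had a log2 fold change of −0.78 and an FDR p-value of 0.0160. Of the genes with such a value there, 2.04% were under 0.05. Meis1, of the same family, was at 32.9, 33.8 and 28.7 CPM against 15.3, 22.0 and 27.0 CPM, with a log2 fold change of −0.56 (unadjusted p = 0.0158, edgeR adjusted p = 0.287). In RPKM the ranges of Meis1 overlapped, with control library 6 at 1.31 and zinc-deficient library 6 at 1.39. Tgm2, the tissue transglutaminase gene, had −0.54 (unadjusted p = 0.0255, edgeR adjusted p = 0.324) with overlapping ranges, and −0.22 without control library 6. Nrip1, a nuclear receptor corepressor gene, had 0.21 and was at 265 CPM in zinc-deficient library 4 against 123 to 170.4 CPM in the others. Fibroblast markers, 5 genes all detected in every library, summed to 257, 184 and 255 CPM in control libraries and 124, 191 and 179 CPM in zinc-deficient libraries. The sum was lowest in zinc-deficient library 4, as were Meis1 and Meis2, and of its genes Dcn and Lum. Pdgfra was instead lowest in zinc-deficient library 6, Dpt in zinc-deficient library 5 and Mfap5 in control library 4. The horizontal basal, globose basal, nasal secretory and endothelial sums were also lowest in zinc-deficient library 4. Like Meis1 and Meis2, the respiratory ciliated and osteoblast sums were lower in CPM in every zinc-deficient library. Ranges were apart for 2 of 6 genes in each list (33.3%, beside 18.9% of all genes tested). The part of these cell types in the values of Meis1 and Meis2 was not tested.

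**Figure D5:**
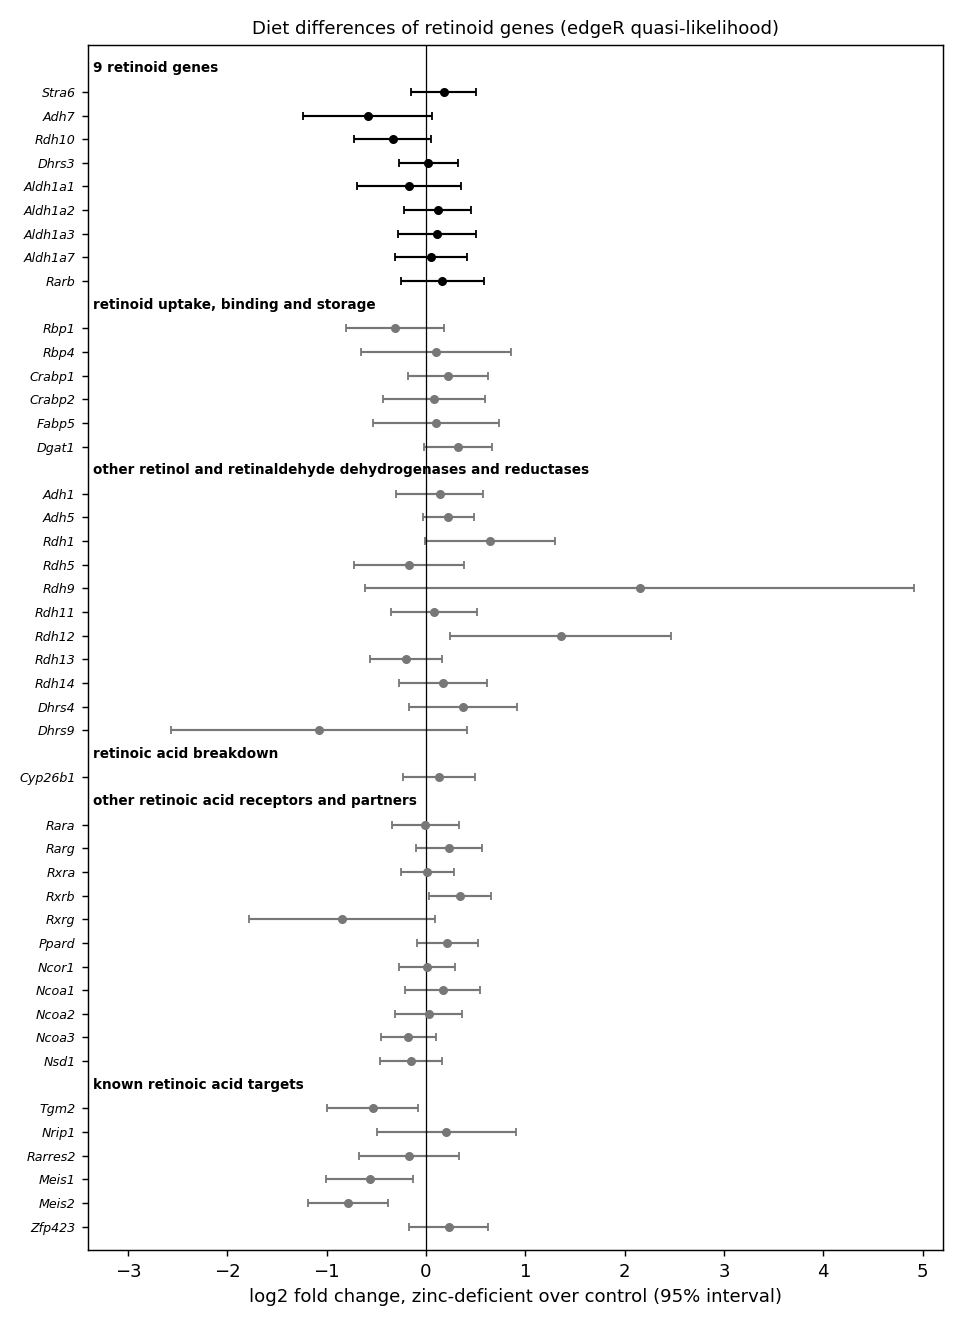
Log2 fold change (zinc-deficient over control) with its 95% interval from edgeR for the 9 genes (black) and for the tested pathway genes with a mean of at least 1 CPM in a diet (grey, 1 gene not shown), grouped by role. All 9 black intervals include 0, and the grey intervals of Rdh12, Rxrb, Tgm2, Meis1 and Meis2 do not.

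Likeness of pattern was measured as the root-mean-square difference of log2 CPM over the 6 libraries after each gene was centred on its own mean, so that 0 is an identical profile. Among named genes with a mean of at least 1 CPM in a diet, the nearest to Adh7 was Lratd1 at 0.081 log2 units and the nearest to Aldh1a1 was Sec11c at 0.072. Pde8b was nearest to Rdh10 (0.040), Adam11 to Dhrs3 (0.028), Dgkd to Stra6 (0.026) and Fam131b to Rarb (0.050). For the remaining Aldh1a genes, the nearest were Ythdf1 to Aldh1a2 (0.035), Pcnx4 to Aldh1a3 (0.034) and Fut4 to Aldh1a7 (0.023). Over the 17755 genes compared, the median distance from a gene of the 9 lay between 0.265 and 0.539. The closest pair was Aldh1a3 and Aldh1a7 at 0.079, where Aldh1a7 ranked 65 among the genes nearest to Aldh1a3, and for Adh7 the nearest of the other 8 was Aldh1a1 at rank 206.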

How the data were processed

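Per the labels' protocols, ribosomal RNA was removed from 500 ng of total RNA and libraries were built with an NEBNext Ultra II kit. For every library the authors deposited whole-number counts per gene and RPKM, together with their own fold change, p-value and FDR p-value, per the file headers. The sources used here do not give the aligner, counter, read length, genome build or the test behind the authors' comparison, so deposited coordinates are printed without a build.

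The count test was edgeR 4.0.16 in R 4.3.3 (robust quasi-likelihood, TMM scaling, filterByExpr, diet as the only term, two-sided, Benjamini-Hochberg adjustment over the 18427 genes tested). A standard error is the size of the log2 fold change divided by the root of F. RPKM served for levels between genes and has no scaling between libraries beyond depth. Between libraries of a diet, counts differed by at least 20.8 times sampling noise (chi-square per degree of freedom), so none was treated as a repeat deposit of another; this does not show that they came from separate animals. Only counting error enters the floor of 3 counts. The fit was tested on simulated data. Sequences are from RefSeq (GRCm38.p6) and GENCODE M21 (GRCm38).

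The genes and lists were chosen with earlier results of these data known. All 9 genes are named. From each pathway list the text names genes with an unadjusted p under 0.05, the gene with the largest change at a mean of at least 1 CPM in a diet, and the 2 most abundant by RPKM, of which 1 gene is not reported here. Dhrs9 and the marker lists set beside single genes were picked after their values were seen. Alternatives were a replicate block, each library left out, scaling by RLE or upper quartile, no filter, a minimum of 100 counts over all libraries, DESeq2 1.42.0, limma-voom (limma 3.58.1), limma on log2(RPKM + 1) where either diet averaged 1 RPKM or more, and an adjusted p of 0.01.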

Additional observations from a re-analysis of the deposited data

How the results depend on the processing

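None of the 9 genes passed in any of 126 alternative results (14 settings for each gene), where the lowest adjusted p was 0.207, nor at an adjusted p of 0.01. Their log2 fold changes kept their sign in 121 and changed it in 5, each time without 1 library: Aldh1a1 was 0.027 without zinc-deficient library 4, Aldh1a7 −0.0085 without control library 4 and −0.0056 without zinc-deficient library 6, and Dhrs3 −0.041 without control library 5 and −0.037 without zinc-deficient library 4. With a library left out, Aldh1a1 ranged from −0.37 to 0.027, Aldh1a7 from −0.0085 to 0.16 and Dhrs3 from −0.041 to 0.11. Aldh1a1 and Aldh1a7 summed ranged from −0.31 to 0.047, the last without zinc-deficient library 4. An unadjusted p under 0.05 in a fit across all genes appeared for Adh7 under 4 settings and for Rdh10 under 1, without control library 5. For Adh7 these were the replicate block, DESeq2, and the fits without control library 5 or zinc-deficient library 6. Over all genes, 2262 of 18427 were under 0.05 with the replicate block and 2391 of 18422 with DESeq2. Without control library 5 it was 2657 of 18914, and without zinc-deficient library 6 it was 2034 of 18758. Over all genes the count of 22 became 153 with the replicate block, 172 without the low-count filter, 356 with DESeq2, 6 with limma-voom, 10 with limma on log2(RPKM + 1) and 2 at an adjusted p of 0.01, and lay between 9 and 50 with a library left out. Of the 22, 16 were higher under the zinc-deficient diet, but 1 of 9 was without control library 5. Of the 38 other pathway genes, 0 with all libraries became 2 with the replicate block (Dhrs9 at −1.23 and Meis2 at −0.81, beside 0.83% of all genes called), 1 without the low-count filter (Meis2, beside 0.615% of all) and 1 with DESeq2 (Meis2), and 0 with each library left out. Limma on log2(RPKM + 1) shifted the median of all genes to 0.095, and the 9 genes had a median of 0.14 there. Same-numbered libraries deviated together only weakly (correlations of −0.048, 0.15 and 0.068 for numbers 4, 5 and 6), and not every library correlated best with its own number, so the numbers were not taken as pairs. All 9 genes had at least 154 counts in each library.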
